A study of Homo sapiens with 8 samples.

Results

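The genome around 5 genes was examined in 4 intervals of hg19: FGFR1 with its neighbour ZNF703 (chromosome 8, 37.0 to 38.6 Mb), FGFR2 (chromosome 10, 122.6 to 123.9 Mb), EGFR (chromosome 7, 54.7 to 55.6 Mb) and FGFR3 (chromosome 4, 1.6 to 2.0 Mb). A site belonged to an interval when its centre lay inside it, so membership used position alone. The intervals themselves were chosen with earlier results of these data known, so the densities and window shares below are descriptive. The intervals held 51 of the 14191 sites on the authors' 2 lists, 18 p63-closed and 33 opened. Accessible chromatin was assayed by ATAC-seq, which marks open DNA by insertion of the Tn5 transposase, in 8 samples, 2 per group, all of H9, an established line of human embryonic stem cells. p63-/- cells and wild-type cells were taken at day 7 of the labels' surface ectoderm protocol, in which BMP4 (5 ng/ml) and retinoic acid (1 uM) are added. Wild-type embryonic stem cells were taken at day 0. Cells with the genotype TetO:Tp63+/- were taken at day 0 after 2 days of doxycycline (2 ug/ml), and no list analysed here is tied to them. All groups share the H9 background, and the labels do not say how many clones the knockout or inducible line comprised. Day 7 cells were kept in Essential 6 medium and stem cells in Essential 8, a medium that also supplies the ligand FGF2, so the day 7 against day 0 comparison differs in an FGF receptor ligand as well as in the morphogens. The "p63-closed" list holds sites that its name says the morphogens open and p63 closes, and the labels tie it to p63-/- and wild-type cells at day 7. The "opened" list holds sites that its name says the morphogens open, and the labels tie it to wild-type cells at day 7 and day 0. No site of one list overlaps a site of the other. By their names both lists hold sites that the morphogens open, and the rule and threshold that put a site on one list and not the other are not stated in the sources used here. Every p63-closed share below depends on that rule. Both lists hold positions and a numbered name for each site and no value per sample, so the direction of a change is the authors' own, read depth is unknown, and nothing below is tested between cultures.

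FGFR1, FGFR2 and FGFR3 encode receptor tyrosine kinases that bind fibroblast growth factors together with heparan sulfate, and EGFR encodes the receptor for EGF, TGF-alpha and amphiregulin. Both families signal through the RAS-MAPK and PI3K routes. In skin, EGFR signalling sustains keratinocyte proliferation, an epithelial isoform of FGFR2 receives FGF7 and FGF10 from the mesenchyme, and FGFR1 is the more mesenchymal receptor as well as the main FGF receptor of pluripotent cells. FGFR3 restrains bone growth and is mutated in benign epidermal growths. ZNF703 encodes a zinc finger repressor and is often amplified with FGFR1 in breast cancer. p63, encoded by TP63, is the p53-family factor that stratified epithelia require.

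The start regions of EGFR and FGFR2 are shown as reference sequence for the genes described below, an example from each receptor family. They come from RefSeq on GRCh38.p14, span the 300 bases around the first start that the table lists for each gene, most of them upstream, and lie at chr7:55018767-55019066 (plus strand) and chr10:121598395-121598694 (minus strand). Those positions are not comparable with the hg19 positions of the sites, and whether a listed site covers either start was not determined. Capitals mark matches, on both strands, to any of 5 short motifs. The AP-1 motif was searched as TGANTCA and that of the TFAP2 factors as GCCNNNGGC. The retinoic acid receptor half-site was searched as AGGTCA, while the motif of GATA factors was written AGATAA. The core of the p53-family half-site was searched as CATG.
EGFR: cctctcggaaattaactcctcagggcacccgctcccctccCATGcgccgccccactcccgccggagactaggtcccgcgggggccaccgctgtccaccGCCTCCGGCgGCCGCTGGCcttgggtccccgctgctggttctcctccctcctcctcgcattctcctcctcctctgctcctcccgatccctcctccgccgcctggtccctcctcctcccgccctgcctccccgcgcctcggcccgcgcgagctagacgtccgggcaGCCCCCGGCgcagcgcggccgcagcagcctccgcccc
FGFR2: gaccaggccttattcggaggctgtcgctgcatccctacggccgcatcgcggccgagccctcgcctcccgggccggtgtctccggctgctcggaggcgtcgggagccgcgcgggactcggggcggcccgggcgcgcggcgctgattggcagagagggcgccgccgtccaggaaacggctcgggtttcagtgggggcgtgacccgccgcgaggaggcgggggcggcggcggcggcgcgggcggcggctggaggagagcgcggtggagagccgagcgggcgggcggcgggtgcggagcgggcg
The EGFR sequence held 3 TFAP2 matches, at positions 99, 109 and 264 from its 5' end, and 1 CATG at position 41, none of which overlap. The FGFR2 sequence held no match to any of the 5 motifs, and neither did the FGFR3 start region, which is not printed. The table lists 5 starts for FGFR2, 2 for EGFR and 1 for FGFR3. Matches are given for the first start only, so other starts of EGFR and FGFR2 may differ. Over the 35116 promoters of the table, 23.2% held a TFAP2 match, 54.9% CATG, 13.8% the retinoic acid half-site, 10.3% the GATA motif and 7.71% the AP-1 motif. GC content was 75.3% for EGFR, 79.3% for FGFR2 and 86.3% for FGFR3, against a median of 58.7% over the table. A match describes letters and is not a binding site.

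The intervals differed in how many sites they held and in which list the sites were on. Around FGFR1 and ZNF703 there were 29 sites, 11 p63-closed and 18 opened. Around FGFR2 there were 15, 7 p63-closed and 8 opened. EGFR had 0 p63-closed and 5 opened sites, and FGFR3 had 0 p63-closed and 2 opened. The p63-closed share was therefore 37.9% at FGFR1 and ZNF703 (exact Clopper-Pearson 95% interval 20.7 to 57.7%) and 46.7% at FGFR2 (21.3 to 73.4%), against 42.5% of all listed sites. The 0 of 5 at EGFR allowed a share of up to 52.2% and the 0 of 2 at FGFR3 one of up to 84.2%, so at these numbers none of the 4 shares could be told apart from the whole series. These intervals cover counting error only and treat sites as independent, which close neighbours need not be.

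**Figure D1:**
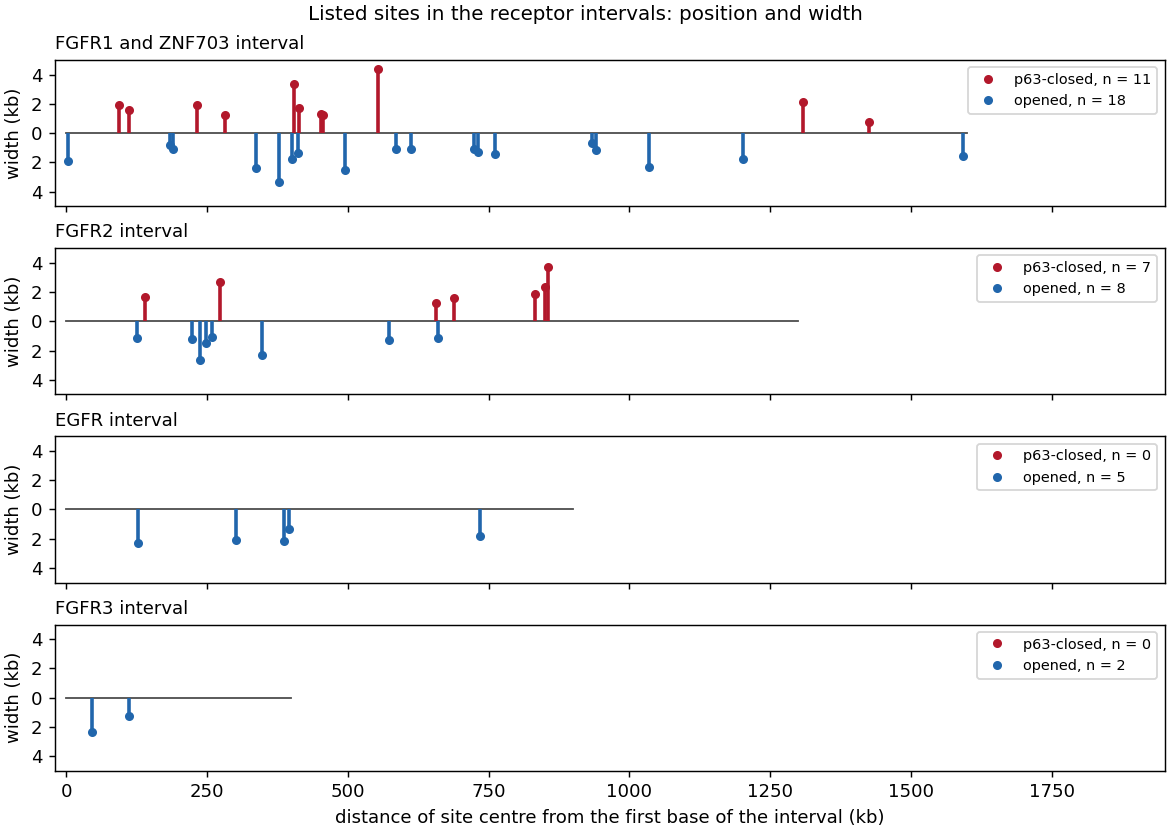
Position and width of every member site. Each row is an interval drawn to one scale in kb from its first base; lines show site widths in kb, p63-closed sites upward and opened sites downward. The FGFR1 and ZNF703 row holds 11 and 18 sites, the FGFR2 row 7 and 8, the EGFR row 0 and 5, and the FGFR3 row 0 and 2.

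Per length, listed sites were densest around FGFR1 and ZNF703, at 18.1 per Mb, against 4.85 per Mb over the whole series, a ratio of 3.74 (exact Poisson 95% interval 2.50 to 5.37). The FGFR2 interval had 11.5 per Mb, a ratio of 2.38 (1.33 to 3.92). The EGFR interval had 5.56 per Mb, a ratio of 1.15 (0.372 to 2.67), and the FGFR3 interval 5.00 per Mb, a ratio of 1.03 (0.125 to 3.73). These Poisson intervals treat sites as independent. Listed sites gather along the genome, so the true uncertainty may be wider. Around FGFR1 and ZNF703 each list was dense, with 6.87 p63-closed sites per Mb against 2.06 in the series and 11.2 opened sites per Mb against 2.79. FGFR2 had 5.38 p63-closed sites per Mb, 2.61 times the series density of that list (1.05 to 5.38). Its 6.15 opened sites per Mb were 2.21 times that of the opened list (0.954 to 4.35), an interval that includes equal density. At EGFR the opened sites alone reached 5.56 per Mb, 1.99 times the series density of that list (0.647 to 4.65). At the series density 1.86 p63-closed sites would fall in an interval as long as that of EGFR and 0.825 in one as long as that of FGFR3, so 0 is close to what their lengths give.

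**Figure D2:**
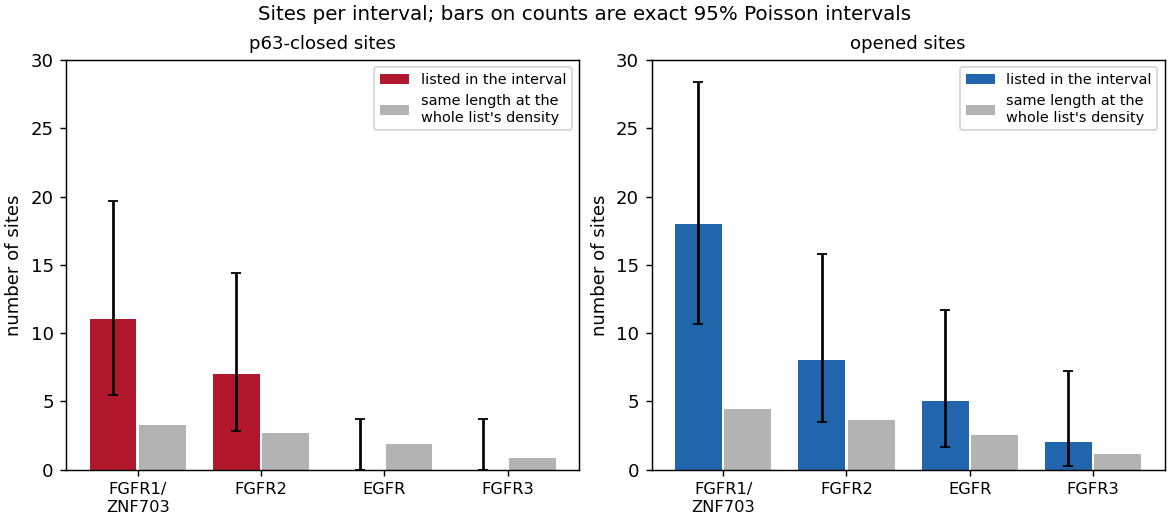
Number of p63-closed sites (left) and opened sites (right) in each interval, beside the number that the same length would hold at the density of the whole list (grey). Lines are exact 95% Poisson intervals of the counts, which treat sites as independent and may be too narrow. Those of FGFR1 and ZNF703 lie above the grey bar for both lists, and those of EGFR and FGFR3 include it. That of FGFR2 starts just above it for p63-closed sites (2.81 against 2.68) and includes it for opened sites.

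Each interval was then set among windows of its own length, tiled along every chromosome, that held at least 1 listed site. These shares describe where an interval stands and are not p-values, since listed sites gather along the genome and the windows include the one that covers the interval. The intervals were also chosen with earlier results of these data known. Of 1750 windows of 1.6 Mb, 0.171% held at least 18 opened sites, 3.49% held at least 11 p63-closed sites and 0.171% held at least 29 sites in all. The share with at least 29 sites was 0.0575% when each window began at the middle of an earlier one. Only 1 window, 0.0571%, reached both 11 p63-closed and 18 opened sites: that from 36800001 to 38400000 on chromosome 8, which covers most of the FGFR1 and ZNF703 interval itself and held 14 p63-closed and 19 opened sites. With the windows moved in the same way, 0% did. The FGFR2 interval was less extreme. Of 2126 windows of 1.3 Mb, 10.0% had at least 7 p63-closed sites, 9.78% at least 8 opened sites, 3.57% at least 15 in all and 0.564% at least as many of each list.

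The EGFR interval was not unusual for its length. Of 2957 windows of 0.9 Mb, 17.5% held at least 5 opened sites and 26.6% held no p63-closed site. Among the 517 windows with at least 5 opened sites, 25.7% had no p63-closed site. For FGFR3, of 5344 windows of 0.4 Mb, 39.3% held at least 2 opened sites and 39.9% held no p63-closed site, and among the 2102 with at least 2 opened sites 48.5% had none. By these window shares the lack of p63-closed sites at both receptors was close to the background. By distance it was less common, as the members lay farther from a p63-closed site than most opened sites do. The p63-closed site nearest to any EGFR member was 987 kb away, and 10.8% of all opened sites were at least that far from one. The p63-closed site nearest to any FGFR3 member was 1348 kb away, and 7.01% of all opened sites were at least that far.

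**Figure D3:**
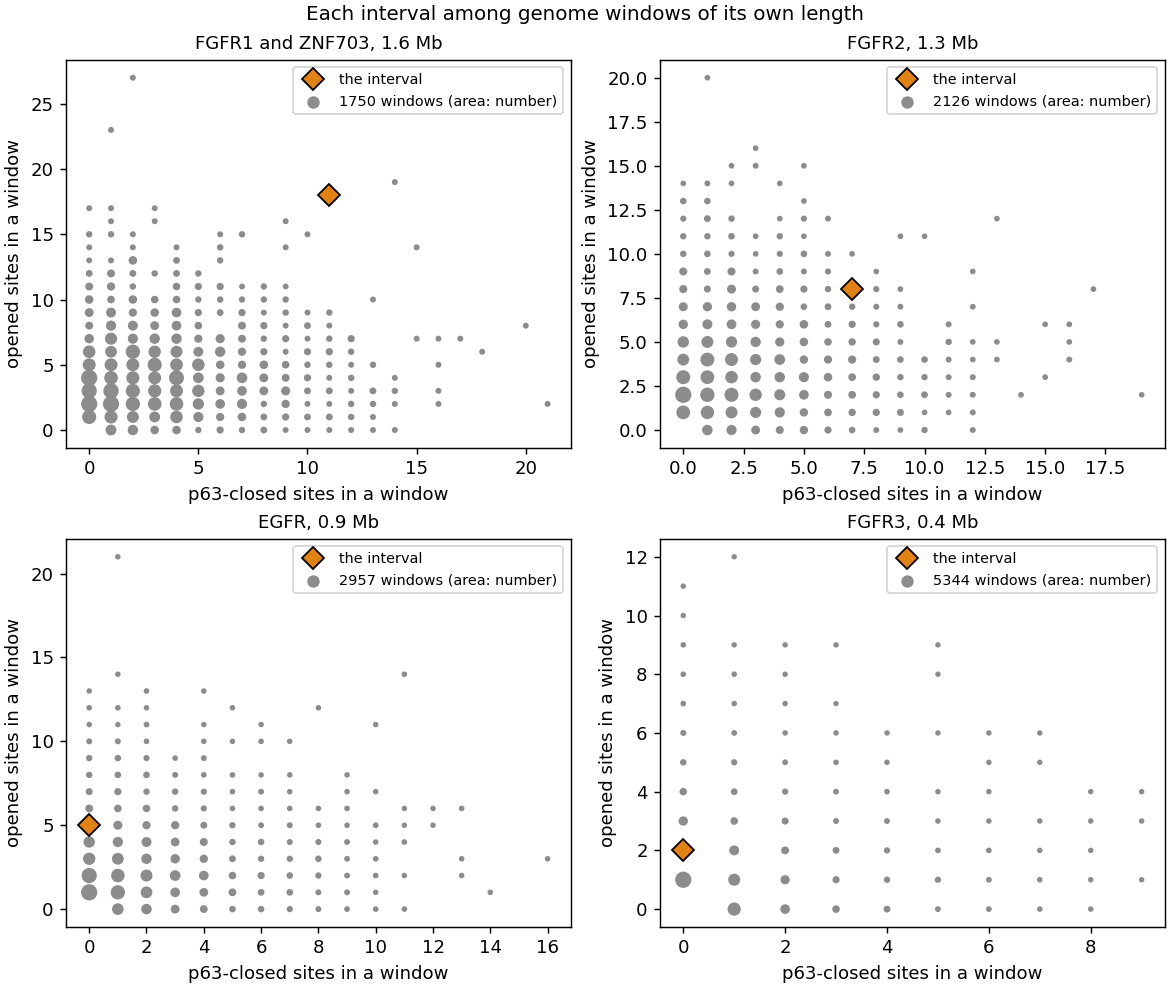
Each interval (diamond) among all windows of its own length with at least 1 listed site (grey points, larger where more windows share the counts); horizontal axes give p63-closed sites and vertical axes opened sites per window. FGFR1 and ZNF703, with 11 and 18, stands at the upper right edge, and EGFR, with 0 and 5, and FGFR3, with 0 and 2, stand among common values.

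Along the FGFR1 and ZNF703 interval, 16 of 28 neighbouring pairs were of the same list, against 61.5% in the series, so mixing was near the background. The runs below are described by position, and such runs were not counted over the whole series. Of the 11 p63-closed sites, 9 lay between 37093193 and 37556211. The opened sites then ran alone, 9 in a row over 618 kb from 37584454 to 38202725, with no p63-closed site among them. The last 2 p63-closed sites followed, at 38307308 to 38309451 (2144 bp) and 38424552 to 38425308 (757 bp), and then a single opened site at 38591661 to 38593209. In the order of protein-coding genes on GRCh38, used here for names only, ZNF703 comes before FGFR1 with 16 genes between them, ERLIN2 first and LETM2 last. Gene positions on hg19 were not used here, so which of these sites lie within ZNF703, FGFR1 or a gene between them was not determined.

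The densest spot of the locus was a group of 4 sites within 14407 bp on chromosome 8. It began with an opened site at 37400219 to 37401971 (1753 bp). A p63-closed site at 37402939 to 37406336 (3398 bp) came 967 bp further on, then an opened site at 37411061 to 37412410 (1350 bp). A p63-closed site at 37412916 to 37414625 (1710 bp) began 505 bp after it, the shortest gap between any neighbours in the 4 intervals. The numbers in the site names rise with position along each chromosome, with 1 exception among all neighbouring sites, and these 4 sites carry consecutive numbers, 1266640 to 1266643, so that the lists alternate from number to number. In the whole series, 365 runs of at least 2 consecutive numbers were listed and only this run reached 4. It was singled out after its values were seen.

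Around it lay further sites of both lists. An opened site at 37376420 to 37379727 (3308 bp), the widest opened member, ended 20491 bp before the group, and p63-closed sites at 37451592 to 37452898 (1307 bp) and 37455724 to 37456932 (1209 bp) followed it. The widest member of all was the p63-closed site at 37551836 to 37556211, of 4376 bp, which ranked 14th in width among the 6037 p63-closed sites. The nearest opened site to it, at 37584454 to 37585508 (1055 bp), was 31.0 kb away between centres, and it begins the long row of opened sites. The remaining p63-closed members were near the start of the interval, at 37093193 to 37095140, 37110011 to 37111565, 37231660 to 37233579 and 37280953 to 37282217, with widths of 1265 to 1948 bp.

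In the FGFR2 interval, opened sites prevailed at the low-coordinate side and p63-closed sites at the other, by position alone. The lists were still mixed, as 7 of 14 neighbouring pairs were of the same list, against 61.5% in the series. A row of 4 opened sites ran over 37.0 kb from 122822659 to 122859630, with widths of 1084 to 2639 bp. A p63-closed site of 2689 bp stood 14.2 kb beyond, at 122871964 to 122874652. The closest pair from different lists was a p63-closed site at 123254943 to 123256204 (1262 bp) and an opened site at 123259746 to 123260903 (1158 bp), 4.75 kb apart between centres. After it came 4 p63-closed sites in a row, from 123287144 to 123457571. The last 2 of these, at 123448836 to 123451191 (2356 bp) and 123453835 to 123457571 (3737 bp), were 5.69 kb apart, and the wider ranked 42nd in width in its list. No site of either list lay in the 442 kb from there to the end of the interval. The protein-coding neighbours of FGFR2 in gene order are WDR11 and ATE1.

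The EGFR interval held a row of 5 opened sites over 609 kb. They lay at 54825597 to 54827895 (2299 bp), 54999783 to 55001837 (2055 bp), 55085952 to 55088121 (2170 bp), 55094239 to 55095597 (1359 bp) and 55432881 to 55434695 (1815 bp). The third and the fourth were 7.88 kb apart between centres, and the nearest distance between any other neighbours was 86.2 kb. SEC61G and LANCL2 flank EGFR in gene order. In the FGFR3 interval the opened sites lay at 1645454 to 1647807 (2354 bp) and 1710199 to 1711477 (1279 bp), 64.2 kb apart, and the last 289 kb of the interval held none. TACC3 and LETM1 flank FGFR3 in gene order.

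Distances between sites of different lists were measured next. An opened site lay within 50 kb, between centres, of 10 of the 18 p63-closed members, or 55.6% (95% interval 30.8 to 78.5%), against 28.9% of all p63-closed sites. That value lies just below the interval of the members. The intervals here treat sites as independent, which close neighbours need not be, and may be too narrow. The 10 include p63-closed sites of the group of 4 that was singled out after its values were seen. A p63-closed site lay within 50 kb of 12 of the 33 opened members, or 36.4% (20.4 to 54.9%), against 22.0% of all opened sites, a value inside the interval of the members. Within 10 kb the counts were 3 of 18 p63-closed members, or 16.7% (3.58 to 41.4%), against 8.07% of all p63-closed sites, and 3 of 33 opened members, or 9.09% (1.92 to 24.3%), against 6.02% of all opened sites. These members are the group of 4 sites at FGFR1 and ZNF703 and the closest pair at FGFR2, so both counts describe the same sites from either side. All those within 50 kb were in the FGFR1 and ZNF703 interval (6 p63-closed and 7 opened) and the FGFR2 interval (4 and 5), where listed sites of either kind are dense, and whether density alone gives these shares was not tested. Neighbouring members were of the same list in 28 of 47 pairs, 59.6% (44.3 to 73.6%), against 61.5% of neighbouring sites in the series. The share was 16 of 28 at FGFR1 and ZNF703 and 7 of 14 at FGFR2; EGFR and FGFR3, with 1 list each, gave 4 of 4 and 1 of 1.

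By median, p63-closed members were wider than opened ones at FGFR1 and ZNF703 and at FGFR2, the only intervals with both lists. Widths of the p63-closed members ran from 757 to 4376 bp with a median of 1788 bp. Their whole list had a median of 1531 bp, which 13 of the 18 members exceeded. The opened members ran from 663 to 3308 bp with a median of 1434 bp, against 1597 bp over their list, and 14 of 33 exceeded it. In the FGFR2 interval the medians were 1866 bp for p63-closed and 1266 bp for opened sites, and at FGFR1 and ZNF703 they were 1710 and 1392 bp. The ranges of the lists overlapped in both intervals. At EGFR the median opened width was 2055 bp, and 4 of the 5 sites exceeded the median of their list. At FGFR3 it was 1816 bp, so at both receptors it was above the median of the p63-closed members. Over the whole series the opened list had the larger median, 1597 bp against 1531 bp. No test is given, as sites are not replicates, and a width is the length the authors gave a region and not a level of accessibility.

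**Figure D4:**
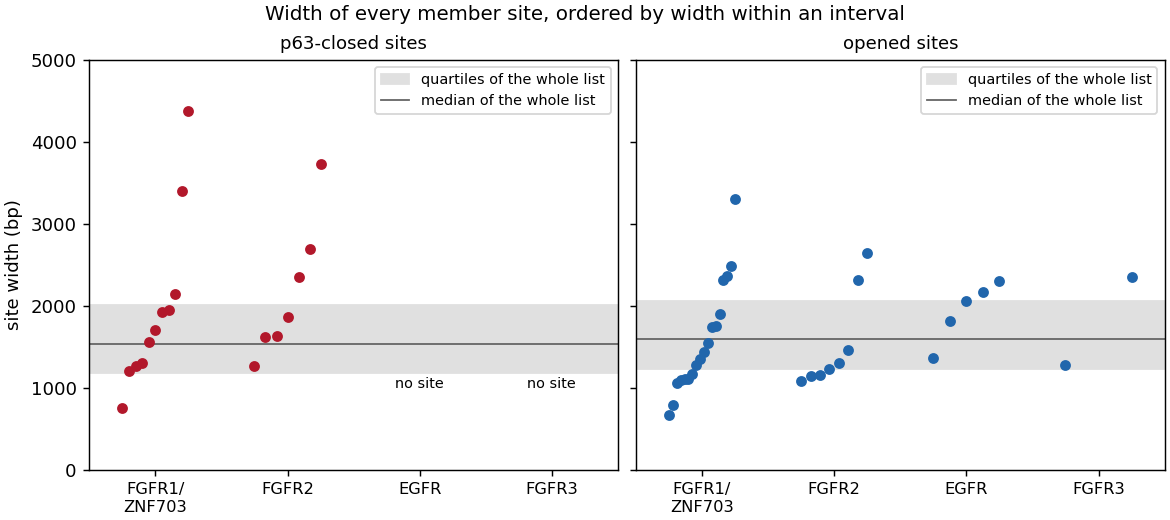
Width in bp of every member site, p63-closed (left) and opened (right), by interval, with the median and quartiles of each whole list (line and grey band). The widest p63-closed sites, of 4376 bp at FGFR1 and ZNF703 and 3737 bp at FGFR2, lie far above their band, while the opened sites at FGFR2 have a median of 1266 bp, near the lower quartile of 1222 bp.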

How the data were processed

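ATAC-seq sites were taken from 2 lists of 4 columns that the authors deposited (chromosome, start, end, site name). Neither list has a measured value beside the position. Per the submitters' processing notes, the authors used DESeq2, MACS2, SAMtools, Bowtie2 and FastQC with hg19 (GRCh37); thresholds, pooling and each tool's role are not stated there. Positions are given 1-based on hg19.

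Computed here were site counts, widths, spacing between centres and densities. The series density uses the span from first to last listed site of each chromosome. Shares carry exact Clopper-Pearson intervals and densities exact Poisson intervals, at 95%. Windows of each interval's length were tiled from the first base of each chromosome, and those without a listed site were left out. Sites were named by position as the widest, first and last of a list, the closest pair of different lists and the longest runs; the FGFR1 and ZNF703 group of 4 was added after its values were seen. Gene names, gene order and promoters come from RefSeq tables on GRCh38.p14. The other genes of both pathways were not analysed here, for want of positions on hg19. The intervals, lists and measures were chosen with earlier results of these data known. Python 3.11.15, numpy 2.4.6, pandas 2.3.3, scipy 1.17.1 and matplotlib 3.10.9 were used.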

Additional observations from a re-analysis of the deposited data

How the results depend on the processing

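No paired analysis was possible because both deposited files carry positions alone, which also leaves no replicate to leave out. Of 81 alternative settings, 75 left the value within 1.5 times the count or window share, or inside the interval of the share or density, and 6 moved it. Some of the 75 could not have moved, so their number overstates stability. Counts and shares of 0 p63-closed sites stay 0 when an interval is narrowed or sites are joined. The widest opened member has 3308 bp, so leaving out sites over 4000 bp cannot change that median. Windows without a site cannot change a share among windows with at least as many opened sites. The choice of all windows, of windows with at least as many sites of each list, and of the density without the group of 4 sites was made after seeing the data. Narrowing the FGFR3 interval by 100 kb at each end left 1 opened site in place of 2. Counting sites of the other list within 10 kb in place of 50 kb gave 3 p63-closed and 3 opened members, fewer by construction. Windows moved to start at the middle of the earlier ones gave 0.0575% with at least 29 sites for FGFR1 and ZNF703 and 0% with at least as many of each list, and 0.894% with at least as many of each list for FGFR2; the cause was not tested beyond the new places of the window edges. Density ratios by numbered site names in place of length were 3.65, 2.28, 1.19 and 1.04 for FGFR1 and ZNF703, FGFR2, EGFR and FGFR3. The numbers at interval ends were interpolated between listed sites, and 6 jumps in the series numbering were filled from distance. These ratios are therefore not independent of length. By length, the ratio for FGFR1 and ZNF703 was 3.22 without the group of 4, against 3.74 with it. Depth is unknown, so a region missing from a list is not shown to be unchanged.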

Other observations

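The file of opened sites runs through the chromosomes 3 times, in successive stretches of 4549, 2706 and 899 sites; what the stretches stand for is not given in the sources used here, and they were not used to group samples. Sites of the first stretch had a median width of 1469 bp over the whole list, against 1770 bp for the second and 1710 bp for the third. The second stretch holds 33.2% of all opened sites and 17 of the 33 opened members, or 51.5%, with 11 of 18 at FGFR1 and ZNF703, 4 of 5 at EGFR, 2 of 8 at FGFR2 and 0 of 2 at FGFR3. The first holds 55.8% of the list and 13 members, among them both FGFR3 sites and, at EGFR, the site from 55085952 to 55088121 alone. The third holds 3 members. Both opened sites of the group of 4 at FGFR1 and ZNF703 are of the second stretch. This pattern was noticed in the data and has no test.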
